A study of Mus musculus with 2 samples.

Results

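The genes described here are 10 genes of melanin synthesis and of the melanosome, *Tyr*, *Tyrp1*, *Dct*, *Pmel*, *Oca2*, *Slc45a2*, *Mlana*, *Slc24a5*, *Gpr143* and *Rab38*, chosen by symbol from the 32285 genes counted in single cells of the fetal mouse eye. All 10 symbols were found, each once. The cells came from E17.5 optic cups on a C57BL/6J background, with 1 pooled library of *Myrf* humWT/humWT mice, which carry the human last exon of *MYRF* in place of the mouse exon, and 1 of *Myrf* humdG/humdG mice, whose human exon also carries the C-terminal frameshift variant. The variant is homozygous in these embryos, and both groups share the humanized exon, so neither is an unmodified mouse. Homozygous humdG embryos are lost shortly before birth. According to the labels, 3 eye cups without cornea were pooled for each genotype, whereas the study's methods keep the cornea and count both eyes of 3 mice, and the protocol in the labels was written for a different *Myrf* line. With 1 library per genotype no replicate error exists and the genotypes are compared without a test. The 95% intervals below stand for counting error alone.

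Melanin is made inside melanosomes, which in the eye are found in the retinal pigment epithelium (RPE), a layer derived from the optic cup, and in melanocytes, which derive from the neural crest and settle in the choroid and iris. Tyrosinase, encoded by *Tyr*, starts the synthesis, and the enzymes encoded by *Tyrp1* and *Dct* act on later steps. PMEL forms the fibrils on which melanin is laid down, membrane transporters set the ions and pH of the organelle, and RAB GTPases bring its cargo. MITF, a transcription factor that binds E-box sequences, is the shared regulator of these genes in both lineages. *Myrf*, the gene altered here, encodes a membrane-bound transcription factor.

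Transcripts were captured in droplets, where each received a cell barcode and a random tag, the unique molecular identifier (UMI), that lets amplified copies be counted as 1. The libraries held 129135207 and 114319529 UMIs in 17421 and 19565 barcodes (humWT first), and 16166 and 18173 cells passed the filters, with a median of 3782 and 2604 UMIs. The libraries shared 102 barcodes. For each class and library the UMIs of a gene were added up and scaled to the class total (CPM, 1000000 times the gene's share of all UMIs), a level that can be compared between classes but is not used here to rank genes against each other. The cells were clustered without the 10 genes or 37 other melanosome genes, so that no class was formed or named from them. With *Rlbp1*, *Rdh5*, *Rgr*, *Rrh*, *Slc16a8*, *Stra6*, *Kcnj13*, *Slc39a12* and *Ttr* raised, 468 humWT and 394 humdG cells were RPE-like. *Rpe65*, *Lrat* and *Best1*, which define mature RPE, had at most 4 UMIs each in either library, so the label rests on earlier markers. With *Kit*, *Pax3*, *Sox10*, *Ednrb*, *Erbb3* and *Cited1* raised, 59 humWT and 35 humdG cells were melanocyte-like. The melanocyte markers *Gapdhs* (1.86 and 2.36 CPM) and *Foxd3* (8.68 and 16.5 CPM) were not raised there. *Kcnj13*, counted among the RPE markers, was higher in melanocyte-like cells (295 and 466 CPM) than in RPE-like cells (66.4 and 68.5 CPM). The melanocyte-like cells were deep, with medians of 28293 and 23569 UMIs against 3546 and 2408.5 UMIs in RPE-like cells. Their number and depth depended on the processing. With cells of over 200 genes kept, 102 and 56 cells had medians of 10046 and 11291 UMIs. With melanin genes left in the clustering, 104 and 63 cells had medians of 10224 and 9803 UMIs. Under a mitochondrial limit of 10%, an added cluster of 31 and 20 cells had medians of 2998 and 2838.5 UMIs. With the libraries merged without integration, the class held 60 and 35 cells. Summed over 8 melanocyte markers, the RPE-like cells held 248 CPM in humWT and 247 CPM in humdG, against 2073 and 2568 CPM in melanocyte-like cells. *Pax3* had 11 and 0 UMIs in RPE-like cells and *Cited1* 14 and 11, while *Sox10*, *Kit* and *Ednrb* reached 58.0 to 105 CPM there.

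The genes lie on 8 chromosomes. In the GENCODE annotation of GRCm38, *Tyr* is at chr7:87424771-87493512 on the minus strand and *Rab38* is farther along the same chromosome at chr7:88430273-88491572, while *Oca2*, also on it, spans chr7:56239760-56536518. *Tyrp1* is at chr4:80834123-80851719, *Dct* at chr14:118012790-118052244 on the minus strand and *Slc24a5* at chr2:125068124-125088677. *Pmel* is at chr10:128704195-128720238, where it overlaps *Cdk2* and *Dgka* on the opposite strand, and *Slc24a5* overlaps *Myef2* in the same way. *Slc45a2* is at chr15:11000721-11029233, *Mlana* at chr19:29697824-29708634 and *Gpr143* at chrX:152781921-152808646. They differ in length from 10811 bases for *Mlana* to 296759 bases for *Oca2*.

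RefSeq promoter windows of GRCm38.p6, from 250 bases before to 50 bases after the start site, were available for *Tyr*, *Tyrp1*, *Dct*, *Oca2* and *Slc24a5*. All 5 of them hold the E-box core CATGTG, read on both strands, which 14.2% of the 32851 windows in the table hold. The longer TCATGTG, the core of the M-box that MITF can bind and a sequence that contains CATGTG, is in 4 of the 5 (not *Oca2*) and in 3.77% of all windows. The matches are shown because 3 of them share their neighbours too: the longest run common to the windows of *Tyr*, *Tyrp1* and *Dct* is GTCATGTGCT, which 0.186% of all windows hold and which was searched for after these windows had been seen. Each 30-base stretch below is written 5′ to 3′ on the strand that reads CATGTG, with the match in capitals.

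Tyr, chr7:87493516-87493545, minus strand: gaaaaagttagtCATGTGctttgcagaaga
Tyrp1, chr4:80834155-80834184, plus strand: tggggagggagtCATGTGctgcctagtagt
Dct, chr14:118052379-118052408, minus strand: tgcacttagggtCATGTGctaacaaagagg
Dct, chr14:118052461-118052490, plus strand: ctttattgggctCATGTGtcccagccaagc
Slc24a5, chr2:125068102-125068131, minus strand: cttatgctgaatCATGTGagcagtctcctt
Oca2, chr7:56239561-56239590, minus strand: gaaaattccagcCATGTGtagcaagctcaa

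The shared run starts 23 bases before the RefSeq start site in *Tyr*, 48 bases before it in *Tyrp1* and 152 bases before it in *Dct*, in the direction of the gene in each. The GENCODE start of *Tyrp1* differs from that of RefSeq. It is at chr4:80834123, so the stretch at chr4:80834155-80834184 lies inside the gene as GENCODE has it. The sequences 250 bases upstream of *Tyr* and *Oca2* are given whole, because in RPE-like cells their levels differed least and most between the genotypes' libraries among the 5 genes with a window.

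Tyr, chr7:87493513-87493762, minus strand: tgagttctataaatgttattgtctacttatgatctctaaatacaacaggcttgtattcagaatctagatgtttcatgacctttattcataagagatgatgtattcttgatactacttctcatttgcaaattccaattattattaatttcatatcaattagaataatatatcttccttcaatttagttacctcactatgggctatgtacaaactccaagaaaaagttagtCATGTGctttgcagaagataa
Oca2, chr7:56239509-56239758, plus strand: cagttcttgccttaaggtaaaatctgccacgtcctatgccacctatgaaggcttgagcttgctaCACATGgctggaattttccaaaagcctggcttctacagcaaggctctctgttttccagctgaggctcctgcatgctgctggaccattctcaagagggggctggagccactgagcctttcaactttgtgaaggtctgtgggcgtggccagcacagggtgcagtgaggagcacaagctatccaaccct

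The other motifs searched on both strands were CACGTG, present in 7.15% of all windows and in none of the 5, GGATTA, a core of the RPE and photoreceptor factor OTX2, present in 7.06% of all windows and in those of *Tyrp1* and *Dct*, and the MYRF motifs CTGGCAC and CTGGTAC, present in 5.01% and 2.24% of all windows and in none of the 5. A match is a run of letters in this window and no more.

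Among the named classes, each of the 10 genes had its highest level in melanocyte-like or RPE-like cells. In humWT and humdG respectively, *Tyr* was at 913 and 864 CPM in RPE-like cells, at 901 and 920 CPM in melanocyte-like cells and at 32.5 and 17.2 CPM in all other cells. *Pmel* was at 7073 and 7805 CPM in RPE-like cells, at 6774 and 8221 CPM in melanocyte-like cells and at 110 and 79.7 CPM in all others. Over all cells of a class these 2 genes were about as high in both pigment classes: the melanocyte to RPE ratio was 0.987 (0.928 to 1.05) in humWT and 1.07 (0.980 to 1.16) in humdG for *Tyr*, and 0.958 (0.937 to 0.979) and 1.05 (1.02 to 1.08) for *Pmel*. Cells of at least 10000 UMIs held 97.2% and 94.8% of the melanocyte-like UMIs. RPE-like cells of that depth alone had higher levels than melanocyte-like cells, 1252 and 1175 CPM for *Tyr* and 9453 and 9831 CPM for *Pmel*. At least 10-fold higher levels in RPE-like than in all other cells were found in both libraries for 9 of the 10 genes, against 1.35% of the genes with at least 50 UMIs. The same held for all 10 in melanocyte-like cells, against 0.85% of genes. The folds in RPE-like cells ran from 10.3 (8.83 to 11.99) for *Rab38* in humWT to 117 (106 to 129) for *Mlana* in humdG, and the gene outside this group was *Slc24a5*, at 7.80 (7.47 to 8.15) and 5.49 (5.20 to 5.80). With the mean of each cell's CPM in place of summed UMIs 5 genes passed, and in RPE-like cells under 10000 UMIs 4. Where RPE cells were chosen by UMIs of RPE markers and the absence of a *Sox10* UMI, 0 passed. That choice left RPE cells with few marker UMIs, or with a *Sox10* UMI, among the others. The share over all genes was computed for the main setting only, so these lower counts have no background. *Sox10* had a UMI in 146 of 468 humWT and 68 of 394 humdG RPE-like cells.

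**Figure D1:**
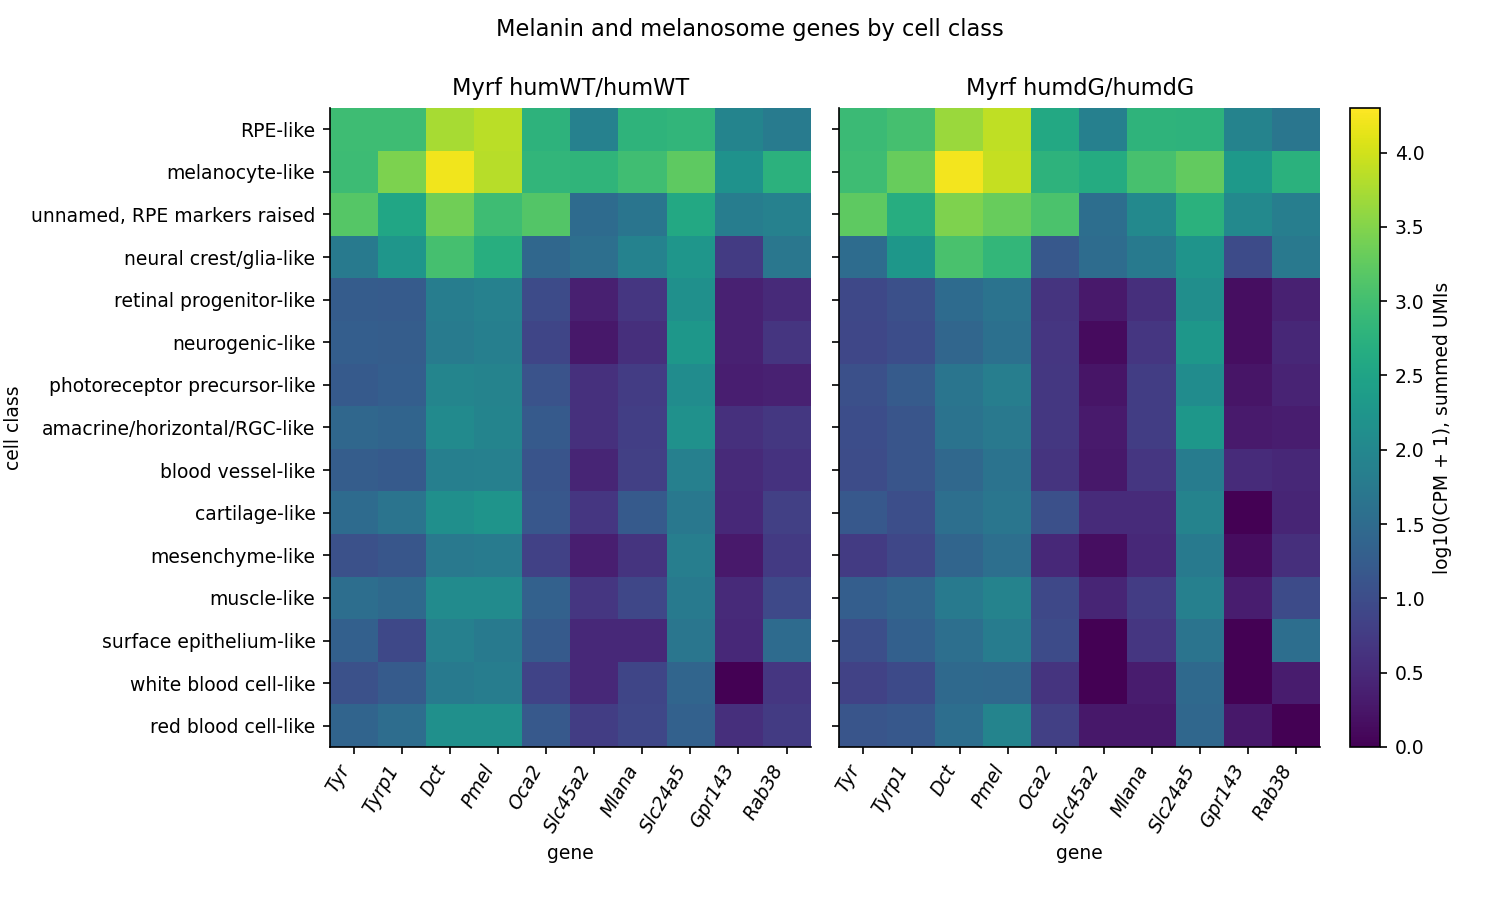
The colour gives log10(CPM + 1) of UMIs summed per class for each gene (columns) and cell class (rows) in both libraries. The melanocyte-like and RPE-like rows are the brightest for most genes, *Slc24a5* keeps 123 to 190 CPM in the 4 classes of neural retina, and *Rab38* has 30.5 and 34.6 CPM in surface epithelium-like cells.

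The remaining 8 genes were higher in melanocyte-like than in RPE-like cells of both libraries, where 43% of genes were. The enzymes *Dct* and *Tyrp1* were among them. *Dct* was at 16400 and 16548 CPM in melanocyte-like cells and at 5493 and 4417 CPM in RPE-like cells, a ratio of 2.99 (2.93 to 3.04) in humWT and 3.75 (3.65 to 3.84) in humdG. *Tyrp1* was at 2854 and 2024 CPM against 904 and 1093 CPM, ratios of 3.16 (3.02 to 3.30) and 1.85 (1.74 to 1.97). The widest gaps belonged to *Slc45a2*, a transporter of the melanosome membrane, and *Rab38*, a GTPase that sends tyrosinase and its relatives to the melanosome. *Slc45a2* was at 661 and 446 CPM in melanocyte-like cells and at 75.4 and 73.6 CPM in RPE-like cells, 8.77 times (7.69 to 10.0) and 6.06 times (5.05 to 7.29) higher. *Rab38* was at 582 and 566 CPM against 60.4 and 48.7 CPM, 9.65 times (8.34 to 11.2) and 11.6 times (9.48 to 14.4) higher. *Slc24a5*, an exchanger of potassium, sodium and calcium, was 2.53 and 3.08 times higher in melanocyte-like cells, with levels of 1725 and 1863 CPM against 682 and 605 CPM. *Mlana*, whose product binds PMEL, was 1.51 and 1.79 times higher, and *Gpr143*, a receptor of the melanosome that is altered in ocular albinism, 1.81 and 2.64 times higher. *Oca2*, a membrane protein that regulates melanosomal pH, was the closest of the 8, at 678 and 598 CPM in melanocyte-like cells against 592 and 389 CPM in RPE-like cells, ratios of 1.15 (1.06 to 1.23) and 1.54 (1.38 to 1.72). RPE-like cells of at least 10000 UMIs had 814 and 543 CPM, above the melanocyte-like level in humWT and below it in humdG. The others of the 8 also had more CPM in these deep cells than in the whole RPE-like class, which narrowed their gaps without reversing any. *Mlana*, for example, was at 833 and 840 CPM there against 939 and 1108 CPM in melanocyte-like cells, and *Dct* was at 7558 and 5665 CPM there.

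**Figure D2:**
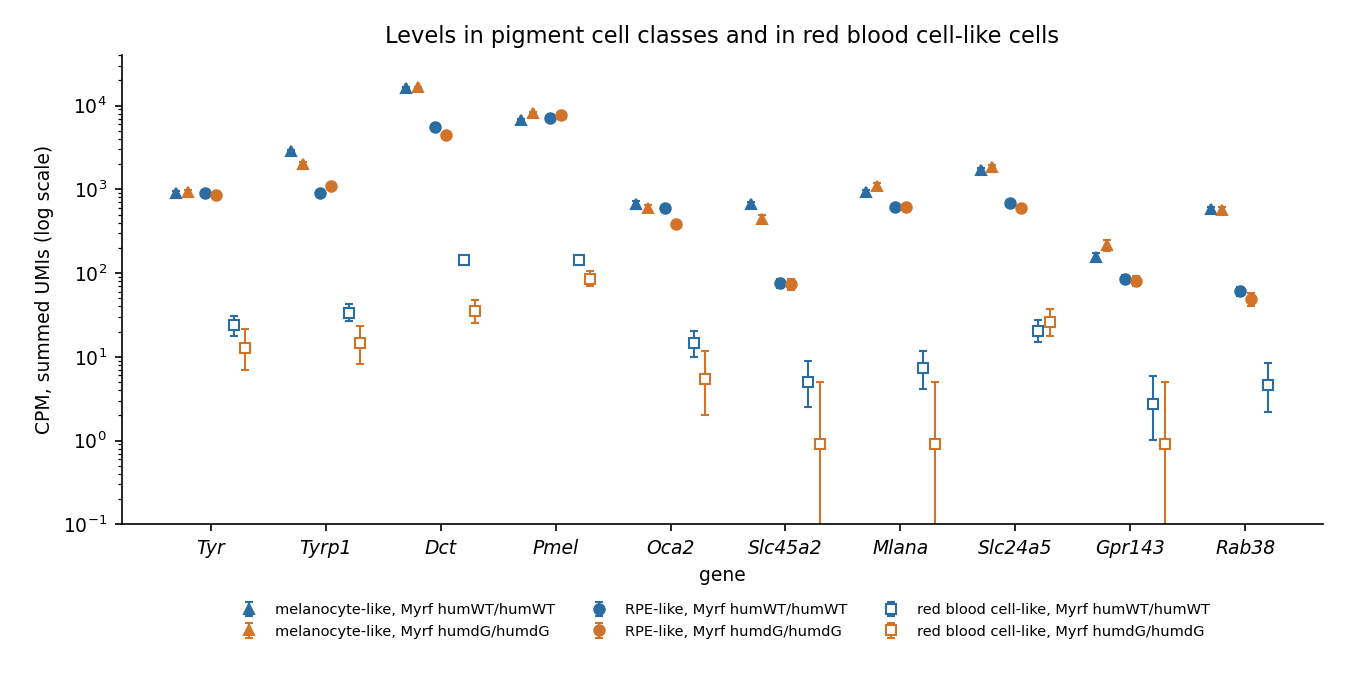
CPM of UMIs summed per class on a log scale, with exact Poisson 95% intervals, for melanocyte-like cells (triangles), RPE-like cells (circles) and red blood cell-like cells (open squares) in both libraries. *Tyr* and *Pmel* coincide in the pigment classes, whereas *Slc45a2* and *Rab38* are 6.06 to 11.6 times higher in melanocyte-like cells, and *Rab38* had 0 UMIs in humdG red blood cell-like cells and is not drawn there.

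The make-up of the set's UMIs differed between the lineages. Of all UMIs of the 10 genes in RPE-like cells, *Pmel* made up 42.9% (42.5 to 43.2) in humWT and 48.8% (48.3 to 49.3) in humdG, and *Dct* 33.3% and 27.6%. In melanocyte-like cells the share of *Dct* was higher, at 51.8% (51.3 to 52.2) and 50.9% (50.3 to 51.5), and that of *Pmel* lower, at 21.4% (21.03 to 21.7) and 25.3% (24.8 to 25.8). The 10 genes together took 16503 and 15995 CPM of the RPE-like cells' UMIs and 31670 and 32509 CPM of the melanocyte-like cells'.

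Because the melanocyte-like cells were deeper, detection was compared at 1000 UMIs per cell, drawn at random from each cell's own. Only 1 cell of the pigment classes, an RPE-like humdG cell, was too shallow for this. *Dct* then had a UMI in 65.2% (60.7 to 69.5) of humWT and 67.9% (63.1 to 72.5) of humdG RPE-like cells and in 100% (93.9 to 100 and 90.0 to 100) of melanocyte-like cells, and unthinned it had one in 89.7% and 83.8% of RPE-like cells. *Tyr*, with overlapping intervals in CPM, was seen in 30.3% (26.2 to 34.7) and 27.0% (22.6 to 31.6) of RPE-like cells but in 64.4% (50.9 to 76.4) and 60% (42.1 to 76.1) of melanocyte-like cells. *Rab38* was seen in 4.27% (2.63 to 6.52) and 2.54% (1.23 to 4.63) against 37.3% (25.04 to 50.9) and 42.9% (26.3 to 60.6). Thinning evens out depth but not the mix of cells in a class. The 366 humWT and 328 humdG RPE-like cells under 10000 UMIs held *Tyr* at 295 and 360 CPM, against 1252 and 1175 CPM in the deeper RPE-like cells. Red blood cells, which should lack these genes, gave the background: in 478 humWT and 241 humdG thinned cells the shares were 13.2% and 5.81% for *Dct*, 17.4% and 7.05% for *Pmel*, 3.35% and 1.24% for *Tyr*, and 0.628% and 0% for *Rab38*, where 0 of 241 cells allows a share of up to 1.24% by the limit of 3 counts and up to 1.52% by the Clopper-Pearson interval. The unthinned medians there were 4157 and 4169 UMIs.

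**Figure D3:**
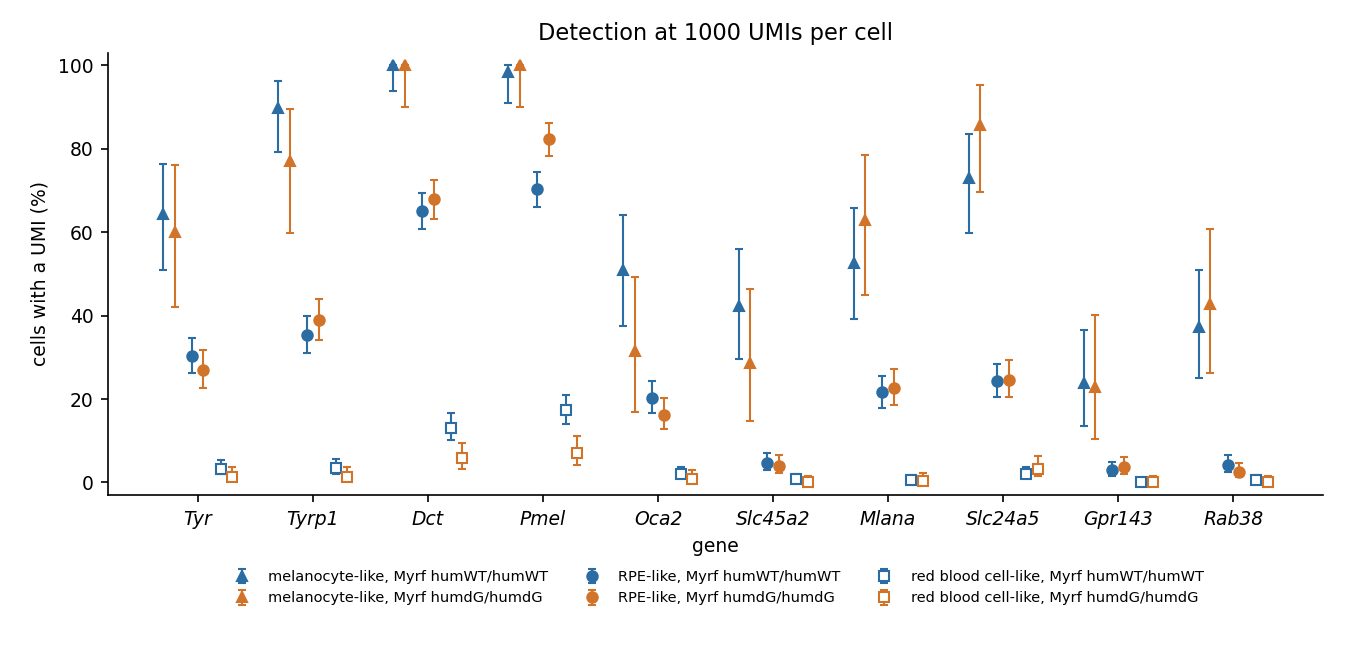
Percent of cells with at least 1 UMI of each gene at 1000 UMIs per cell, with exact Clopper-Pearson 95% intervals, in melanocyte-like (triangles), RPE-like (circles) and red blood cell-like cells (open squares). The melanocyte-like shares lie above the RPE-like shares for all 10 genes in both libraries, and *Dct* and *Pmel* have the highest background, up to 13.2% and 17.4%.

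Outside the pigment classes most of these levels lay near that of red blood cell-like cells. Over 11 other named classes, *Tyr* ran from 10.5 to 34.8 CPM in humWT and from 4.58 to 18.1 CPM in humdG, and *Dct* from 52.8 to 142 CPM and from 23.9 to 58.5 CPM, with the highest humWT level in red blood cell-like cells. *Slc24a5* was the exception. It was at 20.5 and 26.3 CPM in red blood cell-like cells but at 144 and 134 CPM in retinal progenitor-like cells, 184 and 189 CPM in neurogenic-like cells, 123 and 124 CPM in photoreceptor precursor-like cells and 147 and 190 CPM in the cluster that carried amacrine, horizontal and ganglion cell markers. Levels in between were found in mesenchyme-like cells (67.1 and 58.6 CPM) and blood vessel-like cells (73.5 and 63.6 CPM). The same held for muscle-like (58.8 and 73.8 CPM), cartilage-like (51.5 and 81.6 CPM) and surface epithelium-like cells (47.2 and 43.3 CPM). The neurogenic-like level was 8.98 times (6.63 to 12.4) and 7.17 times (4.96 to 10.7) that of red blood cell-like cells. *Myef2*, which overlaps it on the opposite strand, had its highest level in the same neurogenic-like cells, 213 and 215 CPM, and its lowest in red blood cell-like cells, 29.7 and 33.6 CPM, but 80.9 and 74.9 CPM in RPE-like cells and 86.2 and 80.2 CPM in melanocyte-like cells, where *Slc24a5* was highest. The kit marks the strand of a transcript, and whether *Myef2* reads entered the *Slc24a5* counts was not tested. *Rab38* was at 30.5 and 34.6 CPM in surface epithelium-like cells, 6.69 times (3.32 to 14.9) its level in humWT red blood cell-like cells, whereas retinal progenitor-like cells had 2.26 and 1.45 CPM.

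A graded level was found in neural crest and glia-like cells, the 98 humWT and 62 humdG cells with glial markers that fell into 1 cluster with the melanocyte-like cells at resolution 0.5 and were apart from them at 1.0. *Dct* was at 1087 and 1148 CPM there, 7.68 times (6.77 to 8.73) and 32.5 times (23.5 to 46.0) the level of red blood cell-like cells of the same library, *Pmel* at 497 and 698 CPM and *Tyrp1* at 181 and 189 CPM. *Rab38*, at 49.7 and 53.9 CPM, was about as high there as in RPE-like cells. Every member but *Rab38* was lower there than in either pigment class, with *Tyr* at 55.2 and 32.6 CPM and *Oca2* at 26.7 and 14.2 CPM. The levels are means over these cells, and how many of them were melanocytes was not tested.

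In RPE-like cells, *Oca2* was the gene of the set that differed most between the genotypes' libraries, and the set as a whole lay close to all genes. *Myrf* itself had 1123 UMIs (296 CPM) in humWT and 476 UMIs (201 CPM) in humdG, and its log2 ratio of humdG to humWT was -0.56 (-0.71 to -0.40). It had 3 and 0 UMIs in melanocyte-like cells. *Oca2* was at 592 CPM (2247 UMIs) in humWT and at 389 CPM (919 UMIs) in humdG, a log2 ratio of -0.61 (-0.72 to -0.50). The 10 RPE-like cells with most *Oca2* UMIs held 30.1% of them in humWT and 45.7% in humdG. Ranked in the same way by their own UMIs, the other members had 22.6% (*Mlana*) to 30.8% (*Slc45a2*) in 10 cells in humWT. In humdG they had 30.5% (*Dct*) to 45.4% (*Slc45a2*). Ranked by total UMIs instead, the 10 deepest cells held 14.8% and 20.5% of all UMIs of the class. All 10 members passed the minimum of 50 UMIs over both libraries. *Oca2* was the only member at least 1.5-fold lower, where 10.3% of the 10043 genes past that minimum were, and 0 members were at least 1.5-fold higher, where 5.39% of genes were. The median log2 ratio was -0.08 over the 10 members and -0.03 over all genes. Centred on the latter, *Oca2* was at -0.57 and 0 members were 1.5-fold lower. In the 55 humWT and 78 humdG *Xist*-positive RPE-like cells without Y-linked UMIs 5 members were 1.5-fold lower, with a median of -0.50. The share and median over all genes were not computed for these cells, so this count has no background. The converse set, Y-positive RPE-like cells lacking *Xist* UMIs, held 139 humWT and 79 humdG cells. The balance of the sexes among these cells thus differed between the libraries, and its part in the ratios was not tested.

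Among the enzymes, *Dct* was lower in humdG, with a log2 ratio of -0.31 (-0.35 to -0.28), *Tyrp1* was higher, with 0.27 (0.20 to 0.35), and *Tyr* was at -0.08 (-0.16 to -0.0001). Of the structural and membrane proteins, *Pmel* was at 0.14 (0.12 to 0.17) and *Mlana* at -0.01 (-0.11 to 0.08). Of the transporters, *Slc24a5* was at -0.17 (-0.27 to -0.08) and *Slc45a2* at -0.03 (-0.31 to 0.24). *Gpr143* was at -0.09 (-0.35 to 0.18) and *Rab38* at -0.31 (-0.65 to 0.02). The counting intervals of *Slc45a2*, *Mlana*, *Gpr143* and *Rab38* held 0, so these counts give no direction for them. Those of the other members left out 0, which is not a detected difference, because the intervals hold no spread between libraries.

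Melanocyte-like cells gave other values. *Tyrp1* and *Slc45a2* were lower in humdG, with log2 ratios of -0.50 (-0.58 to -0.42) and -0.57 (-0.74 to -0.40), and *Gpr143*, *Pmel* and *Mlana* were higher, with 0.46 (0.18 to 0.75), 0.28 (0.24 to 0.32) and 0.24 (0.12 to 0.36). *Oca2* was at -0.18 (-0.34 to -0.03), *Slc24a5* at 0.11 (0.02 to 0.20), *Tyr* at 0.03 (-0.10 to 0.16), *Rab38* at -0.04 (-0.20 to 0.12) and *Dct* at 0.01 (-0.02 to 0.04). No member passed 1.5-fold, where 7.94% of genes were lower and 5.6% higher by that much, and the median was 0.02 against -0.04 over all genes. The humdG values rest on 35 cells, and the 10 cells with most UMIs of a gene held 58.7% of those of *Tyrp1* and 54.0% of those of *Slc45a2*.

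**Figure D4:**
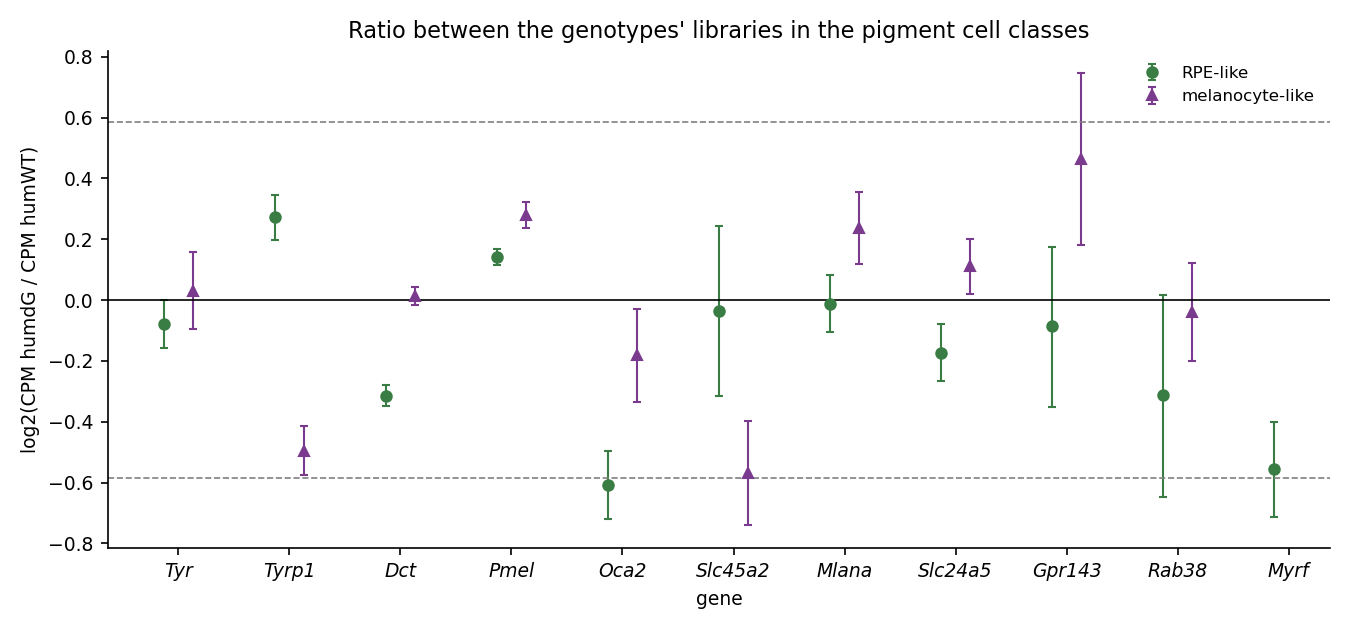
The log2 ratio of humdG to humWT CPM with its exact conditional binomial 95% interval (counting error only) in RPE-like (circles) and melanocyte-like cells (triangles), with dashed lines at 1.5-fold and *Myrf* shown for RPE-like cells only. *Oca2* at -0.61 is the only member past a line, and *Tyrp1* lies at 0.27 in RPE-like and at -0.50 in melanocyte-like cells.

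The RPE-like class mixed 102 humWT and 66 humdG cells of at least 10000 UMIs with 366 and 328 shallower cells, and most members were concentrated in the deep ones. Deep cells held 64.6% and 61.8% of all UMIs of the class but 88.8% and 86.3% of those of *Oca2* and 88.9% and 79.3% of those of *Dct*. For *Rab38* the shares were 69.0% and 78.3%, and its humWT CPM intervals in deep and shallow cells overlapped. The level of *Oca2* was 814 CPM (779 to 851) in deep and 188 CPM (165 to 212) in shallow humWT cells, and 543 CPM (506 to 582) and 140 CPM (116 to 166) in humdG. A deep cell had a median of 9 of the 10 genes with a UMI in both libraries and a shallow cell a median of 4. Markers of RPE other than *Ttr* summed to 4201 and 4158 CPM in deep cells and to 1413 and 1453 CPM in shallow ones.

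Split by depth, *Oca2* was lower in humdG in both parts, with a log2 ratio of -0.59 (-0.71 to -0.47) in deep and -0.43 (-0.75 to -0.11) in shallow cells. *Tyrp1* was higher in both, at 0.23 (0.15 to 0.31) and 0.69 (0.51 to 0.88), as was *Pmel*, at 0.06 (0.03 to 0.09) and 0.73 (0.66 to 0.79). *Dct*, *Slc24a5* and *Tyr* lay on opposite sides of 0: *Dct* was at -0.42 (-0.45 to -0.38) in deep and 0.47 (0.39 to 0.56) in shallow cells, *Slc24a5* at -0.25 (-0.35 to -0.14) and 0.47 (0.23 to 0.71), and *Tyr* at -0.09 (-0.18 to -0.01) and 0.29 (0.07 to 0.50). The direction of these 3 genes over all RPE-like cells is thus that of the deep cells. *Rab38* was at -0.07 (-0.46 to 0.32) in deep and -0.93 (-1.65 to -0.26) in shallow cells, on 71 and 25 UMIs.

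**Figure D5:**
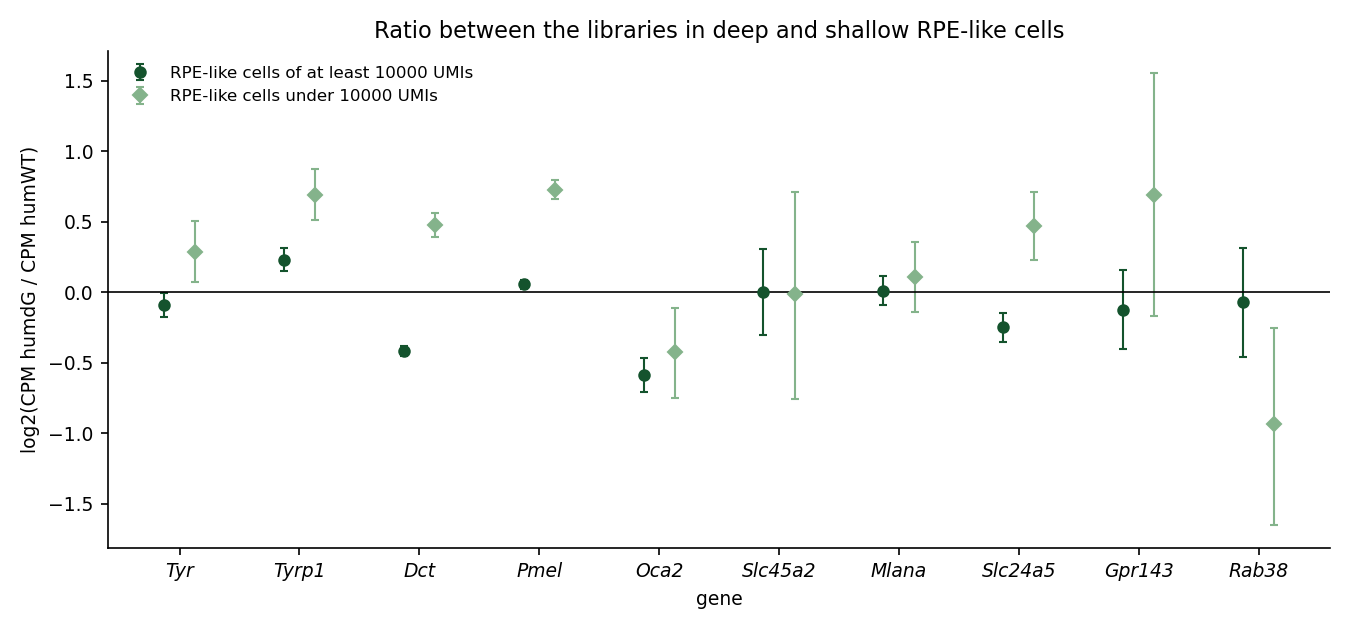
The log2 ratio of humdG to humWT CPM with 95% counting intervals in RPE-like cells of at least 10000 UMIs (dark circles) and under 10000 UMIs (light diamonds). *Oca2* lies below 0 in both, at -0.59 and -0.43, while *Dct* lies at -0.42 in deep and at 0.47 in shallow cells.

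Gene length moved with these ratios. Over the 10 members, the log2 ratio in RPE-like cells had a Spearman's rho of -0.75 with gene length, as a description over genes that share their libraries, and *Oca2* is the longest of them and the lowest. Over all 10038 genes with a length and UMIs in both libraries the rho was -0.24. Genes of at least 100 kb were 1.5-fold lower in 19.7% of cases and had a median of -0.21, while genes under 20 kb were lower in 7.16% of cases and had a median of 0.05. In melanocyte-like cells, where *Oca2* was at -0.18, the rho was -0.43 over the 10 members and 0.03 over 6759 genes. There 8.14% of long genes were lower. The part of gene length in the *Oca2* value was not tested.

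A cluster of 71 humWT and 16 humdG cells stayed unnamed, because 8 RPE markers were raised in it but none was among its leading genes, which were *Ankfn1*, *Otx2os1* and *Pde1c*. It held *Oca2* at 1409 and 1202 CPM and *Tyr* at 1459 and 1734 CPM, 2.38 and 3.09 times and 1.60 and 2.01 times the RPE-like level, while *Mlana* was at 45.6 and 104 CPM and *Pmel* at 916 and 2023 CPM, 0.0731 and 0.168 times and 0.130 and 0.259 times that level. The order of these ratios followed gene length, with a Spearman's rho of 0.90 over the 10 members in each library, and the median mitochondrial share was 1.58% and 1.503% against 3.75% and 2.98% in RPE-like cells. Their part in the pattern was not tested. Within this cluster alone the log2 ratio of humdG to humWT was -0.23 (-0.54 to 0.07) for *Oca2* and 0.37 (0.17 to 0.57) for *Dct*. Counted with the RPE-like cells, this cluster moved the log2 ratio of *Oca2* to -0.71 (-0.82 to -0.61) and that of *Dct* to -0.23 (-0.27 to -0.20). The joined *Oca2* value lay below those of both parts, and the cluster added 71 cells to humWT but 16 to humdG.

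Other genes of the pathway were taken from a list of 46 that holds regulators and receptors, lumen and membrane proteins, factors of organelle biogenesis and transport proteins. In RPE-like cells, 36 had at least 50 UMIs, 5 were at least 1.5-fold lower in humdG, 0 were higher by that much, where 10.3% and 5.39% of all genes were, and the median log2 ratio was -0.34, against -0.03 over all genes. In melanocyte-like cells 31 had at least 50 UMIs, 3 were lower (*Kitl*, *Bloc1s4* and *Rab32*) and 1 was higher (*Hps4*), where 7.94% and 5.6% of all genes were, and the median was 0.08, against -0.04 over all genes. These 4 were named after their values in melanocyte-like cells were seen. The 5 in RPE-like cells were *Myo7a*, a motor that moves melanosomes in RPE, from 88.03 to 52.0 CPM, *Sytl2*, a RAB27 effector, from 138 to 83.8 CPM, *Hps3*, a subunit of a trafficking complex, from 28.5 to 18.2 CPM, *Kitl*, the ligand of KIT, from 13.4 to 7.61 CPM, and *Mfsd12*, from 14.2 to 8.46 CPM. The interval of *Mfsd12* held 0 and those of the other 4 lay below it. *Mitf* was at 342 and 267 CPM, with a log2 ratio of -0.35 in RPE-like cells and -0.06 in melanocyte-like cells. *Trpm1*, an ion channel of pigment cells, was at 1008 and 696 CPM in RPE-like cells and at 738 and 867 CPM in melanocyte-like cells.

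By cell type, 9 of the 46 were at least 10-fold higher in RPE-like than in all other cells of both libraries, where 1.35% of all genes were: *Mitf*, *Sox10*, *Gpnmb*, *Bace2*, *Trpm1*, *Rab27a*, *Myo7a*, *Myrip* and *Sytl2*, of which *Sox10* is also a marker of melanocytes. In melanocyte-like cells 15 were, against 0.85% of all genes. Among these were *Sox10*, *Pax3* and *Ednrb*, markers whose raised level had named the class, so their passing is no finding. *Myrip*, which links RAB27A to myosin VIIA on melanosomes, was at 160 and 122 CPM in RPE-like cells and had 6 and 2 UMIs in melanocyte-like cells. The genes outside the set whose level followed it most closely over 14 named classes in both libraries, 28 points that share libraries and depth, were *Gpnmb*, with a Pearson's r of 0.996, *Ptgds* (0.99), *Cystm1* (0.97), *Trpm1* (0.96), *Tspan10* (0.96), *Trim63* (0.95), *Kcnj13* (0.95), *Hsf4* (0.94), *Bhlhe41* (0.94) and *Ppargc1a* (0.94), on log2(CPM + 10). Of these genes only *Gpnmb* and *Trpm1* were kept out of the clustering, and *Kcnj13* was among the markers that named the RPE-like class. The classes may thus rest in part on the others. The members themselves correlated with their mean at 0.87 for *Slc24a5* to 0.99 for *Mlana*. Each member is part of that mean, unlike the genes outside the set.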

How the data were processed

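Both libraries were made by droplet capture of 3′ transcript ends. The authors aligned the reads and deposited raw UMI counts per gene and barcode from Cell Ranger 7.1.0, per the file headers, with mm10 and Seurat 4.1.1 in the submitters' processing notes. The barcodes outnumber the cells stated in the study. Barcodes with over 500 genes and under 15% mitochondrial UMIs were kept. Scrublet (scanpy 1.11.5) marked 0 cells, so the 5% with the highest scores were removed. Cells were integrated and clustered with Seurat 5.3.0 (R 4.3.3; 2000 variable genes, 20 dimensions, resolution 0.5) without 47 melanosome genes, the 10 members among them. The melanocyte-like cluster was formed at resolution 1.0. A class needed at least 3 markers raised 2-fold, 1 of them among the 20 leading genes. Of the markers used in naming, 1 is not reported here. Ratios have exact conditional binomial intervals, sums Poisson and shares Clopper-Pearson intervals (scipy 1.17.1). The ratio calculation was tested on simulated Poisson counts. Of 200 changed genes among 10043 in RPE-like cells, 100% of 3-fold changes passed 1.5-fold, as did 3.47% of unchanged genes. The simulation held no spread between cells or libraries, so 3.47% is not a rate of false calls for these data. The members and lists were chosen with earlier results of these data known. Named genes were the members, pathway genes past 1.5-fold or 10-fold, and the 10 most alike in pattern. Gene positions are from GENCODE M21, promoter windows from RefSeq. RefSeq windows were not used for *Pmel*, *Slc45a2*, *Mlana*, *Gpr143* and *Rab38*.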

Additional observations from a re-analysis of the deposited data

Results flagged for a closer look

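The log2 ratio of humdG to humWT lay on opposite sides of 0 in the pigment classes for a pair of genes. *Tyrp1* was at 0.27 in RPE-like and at -0.50 in melanocyte-like cells, and *Slc24a5* was at -0.17 in RPE-like and at 0.11 in melanocyte-like cells, with counting intervals that left out 0 in each. With 1 library per genotype the difference between the classes was not tested, *Tyrp1* was at -0.069 in *Xist*-positive RPE-like cells without Y-linked UMIs, and *Slc24a5* was on the other side of 0 in RPE-like cells under 10000 UMIs.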

How the results depend on the processing

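Each library stood alone, so counting intervals leave out the spread between litters, and 35 humdG melanocyte-like cells limit every value of that class. No paired analysis was possible because each genotype has 1 library, and for the same reason no library could be left out. Choosing RPE cells by marker UMIs and the absence of a *Sox10* UMI put *Dct* at 0.34 and *Slc24a5* at 0.32. It left 0 members 10-fold higher in RPE cells than in others. The mean of each cell's CPM put *Dct* at 0.03 and *Slc24a5* at 0.027, with 2 members 1.5-fold lower in humdG and 5 members 10-fold higher in RPE-like cells. With ratios centred on all genes 0 members were 1.5-fold lower. In *Xist*-positive cells without Y-linked UMIs the RPE-like median was -0.50, 5 members were 1.5-fold lower, *Tyrp1* was at -0.069 and *Pmel* at -0.31, and in the converse set of cells the melanocyte-like median was 0.38. In RPE-like cells under 10000 UMIs, an alternative chosen after seeing the data, the median was 0.38, 3 members were 1.5-fold higher, 4 were 10-fold higher than in other cells, *Tyr* was at 0.29, and *Dct* and *Slc24a5* were both at 0.47. RPE-like cells of at least 10000 UMIs and unnamed cells joined to the class were also chosen after seeing the data. The log2 ratio of *Oca2* was below 0 in all 16 alternatives, from -0.93 to -0.43. These reuse the same libraries and largely the same cells, so they do not stand for independent results. The unnamed cluster on its own, at -0.23 (-0.54 to 0.07), was not among them. Members higher in melanocyte-like than in RPE-like cells numbered 6 to 10. Shares over all genes were not computed for these alternatives, so their counts of members have no background. The cause of the shifts from the main values was not tested.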
